A study of Danio rerio with 12 samples.

Results

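Untreated zebrafish embryos at 24 hours post-fertilization (hpf) were examined as 6 pools of about 100 whole embryos each, out of 12 arrays in the series. The members were all arrays whose title calls them control embryo, and the other 6 arrays, of embryos kept with morphine, were not analysed here. The embryos were of the wild-type AB strain, came from natural fertilization and were raised in E3 medium, the salt solution in which zebrafish embryos are kept, without any treatment. Every pool gave 1 RNA sample and 1 Affymetrix Zebrafish Genome Array, and the labels call the pools biological replicates without saying what the replicate numbers (pools 1 to 6 here) stand for. On such an array the signal of a probe set, a group of short oligonucleotides for 1 transcript, depends on the amount of the transcript and on how well its probes bind. A rank by signal is therefore a place on the signal scale of the array and not an order of transcript numbers. Because whole embryos were pooled, fewer cells of a type and less RNA per cell cannot be told apart, and because each pool had a single array, differences between pools and differences between hybridizations cannot be told apart either.

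At 24 hpf the zebrafish embryo has completed segmentation. The somites carry differentiating fast and slow muscle, the heart has begun to beat, primitive red cells are loaded with embryonic globins, and a thin epidermis rich in keratins covers the body. The yolk is still large and is wrapped by the yolk syncytial layer, which makes apolipoproteins and other secreted carriers to export lipid to the embryo, while the brain and spinal cord hold dividing progenitors beside the first neurons, and the lens has only begun to make crystallins.

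The 15502 probe sets that are not Affymetrix controls had log2 signals between 2.72 and 14.40 on the 6 arrays, and array medians lay between 5.82 and 5.85. The mean of a probe set over the 6 pools had a median of 5.83 over all probe sets, with 3.55 at the 10th percentile and 9.22 at the 90th. Pools correlated with each other at 0.993 to 0.999 across probe sets, which are not independent replicates. A single gene was annotated for 10795 probe sets, which stand for 8793 genes, and the brightest probe set of a gene was used for it. Pools 1 and 2 stood apart from the other pools in principal component 1, pool 2 farther than pool 1. They also stood apart in the difference between 3′ and 5′ signals of control transcripts. Without these 2 pools, 299 of the brightest 300 probe sets stayed in the list. No probe set was called present or absent here, so that a signal near 3 or 4 is a place at the low end of the scale and not a zero.

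The brightest 300 probe sets were 1.94% of those described and reached from a mean of 14.35 at rank 1 to 11.58 at rank 300. The probe set at rank 300, of si:ch211-202a12.4, had signals of 11.42 to 11.76 with a median of 11.56, and the one just outside, of idh2 (mitochondrial isocitrate dehydrogenase), had 11.45 to 11.72 with a median of 11.57. Both means were 11.58, with SDs of 0.11 and 0.10 between the 6 pools, so that the edge of the list separates probe sets that do not differ beyond their spread. Of the 300, 268 had a single gene, for 253 genes, and 32 had none or several. Each pool had its own brightest 300, and 270 probe sets were in the list of every pool, while 326 were in the list of at least 1 pool.

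Ribosomal proteins, the structural proteins of the cytosolic ribosome, filled the top of the scale. Of the 20 brightest probe sets, 15 were for ribosomal proteins, 4 had no single gene, and the remaining one was for COX1, the mitochondrially encoded subunit I of cytochrome c oxidase. The brightest was rplp0, the stalk protein of the large subunit, with signals of 14.33 to 14.40 and a median of 14.35. It was followed by rps20 (14.22 to 14.31, median 14.25), rps2 (14.20 to 14.27, median 14.23), rpl12 (14.16 to 14.24, median 14.18) and rps4x (14.13 to 14.22, median 14.21). The range of rplp0 lay above the others, the ranges of the other neighbours in this order overlapped, and each of these 5 genes had an SD of 0.03 or 0.04. Further down came rps23 with a mean of 14.06, rpl38 with 14.03, rpl23 with 14.02 and rpl30 with 14.01, and then rpl8, rps14 and rps25 with 13.97 each, rpsa and rpl9 with 13.94 each and rps27a with 13.93, all ± 0.02 to 0.06 (SD, n = 6). COX1, at rank 14, spanned 13.83 to 14.07 with a median of 13.98, its lowest value being in pool 2. The 4 probe sets with no single gene in the annotation, at ranks 6, 7, 9 and 10, had means of 14.17, 14.14, 14.06 and 14.05. The one at rank 6 shares the stem of its name with the probe set of the keratin krt4. The one at rank 9 shares its stem with that of krt17 and with one that the paper assigns to lrrn1. Whether they read these transcripts was not tested.

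The share of ribosomal proteins fell along the list. They held 66 of ranks 1 to 100, 6 of the next 100 and 3 of the last 100, which makes 75 probe sets, 25.0% of the brightest 300, while ribosomal proteins were 0.497% of all probe sets. Of the 73 genes for cytosolic ribosomal proteins on the array, 72 had a probe set among the brightest 300. The other one was rps27l, a relative of rps27 (rank 1540, mean 9.24 ± 0.07, SD, n = 6). One of the 72 genes, rpl21, had a second probe set with a mean of only 3.83 at rank 13003. Both were picked out here once the values were known.

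**Figure D1:**
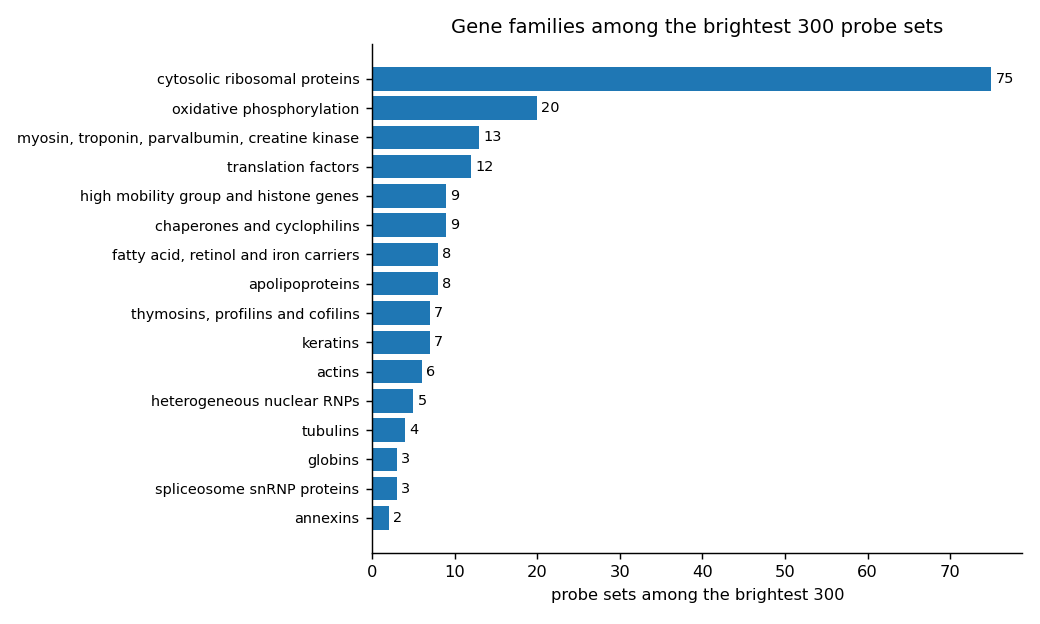
Number of probe sets (horizontal axis) of each gene family (rows) among the brightest 300 probe sets by mean log2 signal over the 6 control pools; bars start at 0. Cytosolic ribosomal proteins hold 75, oxidative phosphorylation 20, the myosin, troponin, parvalbumin and creatine kinase families 13 (the non-muscle myl12.1 included) and translation factors 12, and the 77 probe sets of single genes outside these families and the 32 without a single gene are not drawn.

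The other families of the brightest 300 served translation, energy and cell structure, together with products of a few tissues. Of all 8793 genes on the array, 253 (2.88%) were in the list, and the counts of each family are to be read against this share. Translation factors had 12 of their 64 genes on the array in the list, led by eef1a1l1, which brings aminoacyl-tRNA to the ribosome, at a mean of 13.86. Components of oxidative phosphorylation with cytochrome c, the respiratory chain and ATP synthase, had 18 of 92 genes. Actins had 5 of 6 genes, thymosins, profilins and cofilins, which bind actin, 7 of 11, and tubulins 3 of 16. Chromatin proteins of the high mobility group and histone genes had 9 of 21, and heterogeneous nuclear RNPs, which bind nascent RNA, 5 of 19. The snRNP proteins of the spliceosome had 3 of 11, and chaperones and cyclophilins, which fold proteins, 8 of 77. The remaining families hold many products of single tissues beside genes used more widely, such as fth1a and myl12.1. Among these, apolipoproteins had 8 of 14 genes. Carriers of fatty acids, retinol and iron, with afp4 counted among them, had 8 of 17. Keratins and the S100 proteins icn and icn2 had 6 of 20. Myosin light and heavy chains, troponins, tropomyosins, parvalbumins and creatine kinases, taken by the start of the symbol, had 11 of 44. None of these 11 was a heavy chain or a tropomyosin. Globins had 2 of 5 and annexins 2 of 14. The families were drawn up with the brightest genes known, and 74 genes of the list belonged to none of them, among them the ribosome-bound scaffold rack1, the one-carbon enzyme bhmt, the creatine-making enzymes gatm and gamt, the DNA clamp pcna and the purine enzyme paics.

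Genes of the brightest 300 lay next to each other on the chromosomes in 12 runs with 27 genes, out of 252 genes that could be placed, counting as neighbours genes with no other gene of the array between them. The longest run had 4 apolipoprotein genes, apoa4b.1, apoa4b.2, apoeb and apoc1, and the next had apoa2, apoc2 and the ribosomal gene rps19. The S100 genes icn and icn2 were neighbours, as were the keratin genes krt5 and krt8, and most of the remaining pairs joined genes of different families, such as eef1a1l1 with rpl11. No expected number of such runs was computed.

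The tissue lists also hold genes of general cell machinery, and the tissue a signal came from was not tested. Such are the tubulins of the nervous system list, pfn1 of the epidermis list and ctsla of the yolk list. In the muscle list, aldoab and hsp90aa1.1 also stood in the lists for glycolysis and heat shock. All lists were drawn up with earlier results of these data known, so that their places on the scale are descriptions and not tests. Among the tissue lists, the one of the yolk and yolk syncytial layer stood highest. Of its 29 genes on the array (47 were listed), 14 were among the brightest 300, which is 48.3% of them, while 253 of all 8793 genes on the array, 2.88%, were. As the brightest probe set stood for a gene, 14.8% of all genes were in the brightest 10% of probe sets and 37.5% were below the midpoint of the ranks, and the counts of each list are to be read against these shares. Its median signal was 11.34, against 6.67 for all genes. The brightest was apoa1a, the main protein of high-density lipoprotein, at rank 44, with signals of 13.76 to 13.85 and a median of 13.81. Next came afp4, annotated as a type IV antifreeze protein and similar to apolipoproteins, with 13.61 to 13.74 (median 13.71), and apoa2 with 13.65 to 13.70 (median 13.68), at ranks 60 and 62. Their ranges overlapped with each other and not with that of apoa1a. The small lipoprotein protein apoc1 had 13.11 to 13.27 (median 13.23), and apoeb, which is known as a marker of the yolk syncytial layer, had 12.97 to 13.14 (median 13.06). The other 9 were fabp1b.1, ctsla, tfa, apobb.1, rbp4, apoc2, apoa4b.1, serpina1l and apoa4b.2, with means of 12.97 to 11.65. They comprise further apolipoproteins, the lysosomal protease cathepsin L, transferrin, the plasma retinol carrier and a fatty acid-binding protein.

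The same list also had 7 genes below the midpoint of all ranks. The lowest were vtg4, one of the vitellogenins that the mother's liver makes as yolk precursors, with 3.18 to 3.52 (median 3.25), and mxtx2, a homeobox regulator that sets up the yolk syncytial layer well before this stage, with 3.41 to 3.57 (median 3.50). The vitellogenins vtg2 and vtg3 had means of 4.59 ± 0.18 and 3.71 ± 0.09, and hnf4a, a regulator of liver and yolk genes, had 4.24 ± 0.15 (SD, n = 6 each; these 3 genes were picked once the values were known). The median SD of the list was 0.066, against 0.099 for all genes. The SD fell with signal, however, and was 0.077 for all probe sets with a mean between 11 and 12 and 0.060 for the brightest 300. The average shift of the list lay between -0.024 and 0.018 in every pool.

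Epidermal and muscle genes came next, and their order turned with the choice of probe sets: the median rank was 1015 for epidermis and 1206.5 for muscle, but 1224 and 1098.5 without probe sets of shared sequence and 1433 and 1311.5 with the median over the probe sets of a gene. Of 37 on the array, 10 were among the brightest 300, 22 were in the brightest 10% of probe sets, 4 were below the midpoint, and the median signal was 9.85. The simple-epithelium keratin krt4 stood at rank 64 with 13.54 to 13.79 (median 13.66). The S100-type calcium-binding protein icn had 12.69 to 12.92 (median 12.76), the annexin anxa1c had 12.59 to 12.82 (median 12.73), krt17 had 12.48 to 12.76 (median 12.66) and the actin-binding profilin pfn1 had 12.33 to 12.51 (median 12.44). The ranges of icn, anxa1c and krt17 overlapped. The probe set of icn carries a name ending that marks sequence shared with other transcripts, and for neighbouring genes as alike as icn and icn2 the signals may be mixed. At the low end were the claudin cldne with 4.37 to 4.54 (median 4.46) and krt95 with 4.16 to 4.41 (median 4.28). tp63, the transcription factor of basal epidermal cells, had a mean of 8.33 ± 0.13 and the adhesion protein epcam had 11.58 ± 0.07, at rank 302, just outside the brightest 300 (both picked once the values were known). The epcam probe set also has an ending that marks shared sequence, and it shares the stem of its name with those of icn and icn2. Whether it reads their transcripts was not tested.

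**Figure D2:**
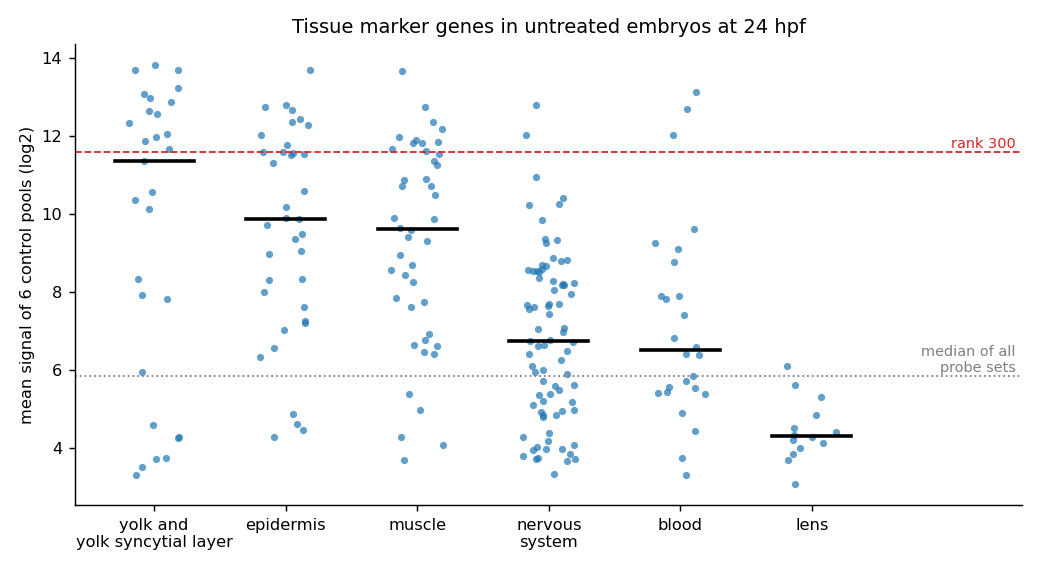
Mean log2 signal over the 6 control pools (vertical axis) of the marker genes of 6 tissues (columns), 1 point per gene, with black bars at the median of each list, a dashed line at rank 300 (11.58) and a dotted line at the median of all probe sets (5.83). The medians descend from 11.34 for the yolk and yolk syncytial layer to 4.31 for the lens, and every list but the lens has points above the dashed line.

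Muscle genes had a median signal of 9.60, with 11 of 44 genes among the brightest 300, 25 in the brightest 10% and 5 below the midpoint. The alpha-actin gene actc1b led the list at rank 65 with 13.50 to 13.76 (median 13.69), although on a probe set whose name marks shared sequence. The alpha-actins actc1a and acta1a followed with 12.58 to 12.86 (median 12.78) and 12.27 to 12.42 (median 12.32). The muscle creatine kinase ckmb, which buffers ATP, had 12.08 to 12.28 (median 12.19), and mylpfa, the regulatory light chain of fast myosin, had 11.66 to 12.20 (median 11.98), the widest range of these 5 genes. At the other end stood atp2a1l, related to the calcium pump of the sarcoplasmic reticulum, with 3.64 to 3.79 (median 3.65), and tnnc1a, a troponin C of heart and slow muscle, with 3.93 to 4.36 (median 4.07). Among regulators of muscle fate, myog, which drives terminal differentiation, had a mean of 8.94 ± 0.11, and myod1, myf5 and myf6 had 5.37 ± 0.10, 4.96 ± 0.11 and 4.28 ± 0.10 (SD, n = 6; these 4 genes were likewise picked once the values were known).

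The blood list had a few bright genes, and the rest were placed much like all genes. Of 26 genes, 3 were among the brightest 300 and 11 below the midpoint, and the median signal of 6.50 was close to that of all genes, 6.67. The embryonic alpha-globin hbae3 had 13.07 to 13.19 (median 13.10) at rank 112 and the embryonic beta-globin hbbe3 had 12.59 to 12.80 (median 12.69) at rank 154. Next were prdx2, a peroxiredoxin abundant in red cells, with 11.96 to 12.07 (mean 12.01), the biliverdin reductase blvrb with 9.52 to 9.65 (median 9.61) and the heme-pathway enzyme urod with 8.99 to 9.51 (median 9.22). These last 3 are also made outside blood. The lowest were slc25a37, the mitochondrial iron importer of red cell precursors, with 3.68 to 3.88 (median 3.72), and runx1, the transcription factor of definitive blood stem cells, with 3.25 to 3.36 (median 3.32). Adult globins, in the list for adult or later organs, were far below the embryonic ones on this scale, with means of 4.65 ± 0.16 for hbaa1 and 3.67 ± 0.12 for hbba2 (SD, n = 6, picked once the values were known).

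Genes of the nervous system were spread over the whole scale. Of 80 genes, 2 were among the brightest 300, 10 in the brightest 10% and 30 below the midpoint. Their median signal of 6.72 lay beside the 6.67 of all genes. The tubulin tubb2b had 12.73 to 12.82 (median 12.80) and marcksl1b, a MARCKS-related regulator of the membrane cytoskeleton, had 11.77 to 12.16 (median 12.04), with the lowest value in pool 2. Then came sox3, a transcription factor of neural progenitors, with 10.74 to 11.10 (median 10.95), the alpha-tubulin tuba1b with 10.20 to 10.62 (median 10.38) and the beta-thymosin tmsb with 10.15 to 10.35 (median 10.24). The sox3 probe set shares the stem of its name with the 4 probe sets of hmga1a, and whether it reads both transcripts was not tested. The tuba1b probe set has a name ending that marks sequence shared with other transcripts. Lowest were syn1, a synaptic vesicle protein, with 3.53 to 3.82 (median 3.62), and atoh7, which starts the first retinal ganglion cells, with 3.16 to 3.48 (median 3.35).

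Members of the same kind lay far apart on this scale. The progenitor factors sox19a and sox2 had means of 10.21 ± 0.10 and 9.32 ± 0.13, the glial and progenitor genes fabp7a and gfap had 9.84 ± 0.10 and 8.54 ± 0.11, and elavl3, an RNA-binding protein of new neurons, had 8.34 ± 0.17, whereas its relative elavl4 had 5.39 ± 0.27 and the progenitor factor olig2 had 5.60 ± 0.10. The GABA-making enzymes gad2 and gad1b had 4.84 ± 0.11 and 4.07 ± 0.11, the transporter slc32a1 that loads GABA into vesicles had 4.02 ± 0.05, tyrosine hydroxylase (th) had 3.85 ± 0.06 and the myelin gene mbpa had 3.79 ± 0.09 (SD, n = 6 each). The synaptic genes snap25a and sncb had 7.68 ± 0.14 and 7.61 ± 0.09. All of these were picked once the values were known.

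No lens gene reached the brightest 10%, and 13 of the 14 on the array (65 were listed) were below the midpoint. The median signal was 4.31. The brightest was the beta-crystallin cryba4 with 5.93 to 6.35 (median 6.08) at rank 7182, followed by crybb1 with 5.42 to 5.71 (median 5.63), the alpha-crystallin cryaa with 5.16 to 5.41 (median 5.30), the gamma-crystallin crygm4 with 4.67 to 4.97 (median 4.84) and the gap-junction protein gja3 with 4.36 to 4.92 (median 4.41). The lowest was crygm6, another gamma-crystallin, with 2.95 to 3.15 (median 3.05) at rank 15400, and crygm2c had 3.55 to 3.77 (median 3.73). For cryba4, cryaa, crygm4, gja3 and crygm6 pool 2 held the highest value. The list averaged 0.107 above its own mean in pool 2 and shifted by -0.088 in pool 3, and the list of adult or later organs shifted by 0.053 in pool 2 and by -0.088 in pool 3. All probe sets with a mean between 4 and 5 shifted by 0.040 in pool 2 and by -0.049 in pool 3.

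The lists of smaller tissues had at most 1 gene each among the brightest 300. In the brightest 10%, where 14.8% of all genes were, stood 2 of 6 genes for the hatching gland and 5 of 14 for pigment cells. For fin fold and cartilage there were 2 of 11, for heart 2 of 12 and for notochord 1 of 16. Median signals were 8.427 for the hatching gland, 7.971 for fin fold and cartilage and 7.555 for pigment cells. Heart had 6.613 and notochord 6.290, against 6.67 for all genes. The hatching gland list (6 genes) was led by the tetraspanin cd63 at 11.11 ± 0.10 and the secretory-pathway regulator xbp1 at 11.02 ± 0.12, both of which are used by many cells. The pigment cell list (14 genes) was led by the purine-synthesis genes paics at 12.83 ± 0.07 and atic at 10.66 ± 0.02, which all dividing cells use, and by gch2, which makes pteridines of yellow pigment cells, at 10.26 ± 0.22. Its lowest members were the receptor kinases csf1ra at 3.89 ± 0.09 and kita at 3.54 ± 0.12. In the heart list (12 genes) the cardiac myosin light chain myl7 had 9.51 to 9.82 (median 9.56) and cmlc1 had 9.13 to 9.42 (median 9.33). Cardiac regulators lay far apart, with hand2 at 8.49 ± 0.10 and gata5 at 8.03 ± 0.05, but tbx20 at 3.67 ± 0.18 and nkx2.5 at 3.63 ± 0.13. The notochord list (16 genes) was led by cav1, a protein of caveolae also made elsewhere, at 10.72 ± 0.07, and the fin fold and cartilage list (11 genes) by the type I collagens col1a1a at 9.63 ± 0.14 and col1a2 at 9.57 ± 0.10. The probe sets of cav1 and col1a1a have name endings that mark sequence shared with other transcripts.

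In the endoderm and gut list (17 genes) the intestinal fatty acid-binding protein fabp2 had 12.54 to 12.83 (median 12.72) at rank 156, whereas the hormone gene ins, next in the list, had only 6.70 to 7.07 (median 6.87) at rank 5452. The endoderm genes sox17 and vil1 were lowest, at 3.79 ± 0.05 and 3.31 ± 0.07. Vessels (10 genes), pronephros (12 genes) and germ cells (6 genes) had medians of 5.46, 4.83 and 4.52 and no member among the brightest 10%. Their leading genes were the apelin receptor aplnra at 7.70 ± 0.10, the kidney cadherin cdh17 at 7.94 ± 0.09 and the germ cell factor dnd1 at 8.01 ± 0.13 (SD, n = 6 each).

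A list of 48 genes of adult or later organs (pancreas, photoreceptors, pituitary, ovary, adult blood) had a median of 4.47 and marks the low end of the scale, with 47 genes below the midpoint. The exception was fabp2, which was also in the endoderm and gut list. This low-end list overlapped other tissue lists too, with vtg2 and vtg3 in the yolk list and mbpa in the nervous system list. Against the low-end list, 72 genes of machinery used by all cells had a median of 12.16, with 50 among the brightest 300 and none below the midpoint. Of all genes, 2.88% were among the brightest 300 and 37.5% below the midpoint. Both lists were drawn up with earlier results of these data known, so that the contrast between them is a description and not a test. The reference genes often used for normalization lay far apart in signal. Of them eef1a1l1 had 13.80 to 13.94 (median 13.87), rpl13a 13.69 to 13.78 (median 13.71), actb1 13.31 to 13.38 (median 13.37), actb2 12.95 to 13.00 (median 12.99) and gapdh 12.28 to 12.41 (median 12.33). Dim and wider were tbp, the TATA-binding protein, with 6.78 to 7.28 (median 6.87), its highest values being in pools 1 and 2, and b2m, a subunit of class I MHC molecules, with 4.64 to 5.09 (median 4.95).

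Pools differed little for most transcripts. The SD between the 6 pools had a median of 0.101 log2 units over all probe sets and 0.060 in the brightest 300. The 90th percentile was 0.182, and the range was 0.00833 to 1.37. By signal, the median SD was 0.088 below 4, 0.120 between 5 and 6, 0.090 between 9 and 10 and 0.043 above 13. Of all bins of signal it was greatest between 5 and 6, around the median signal, and smallest above 13. The smallest SDs among the 5190 probe sets with a mean of at least 7 belonged to the ribosomal genes rplp2b (13.76 to 13.80, median 13.79) and rpl10 (13.90 to 13.94, median 13.93), to sirt6, a deacetylase of chromatin (8.11 to 8.15, median 8.14), to bud23, which methylates ribosomal RNA (7.19 to 7.24, median 7.21), and to soul3, of the heme-binding SOUL family (7.43 to 7.48, median 7.45). The values had been quantile normalized across arrays by the authors, and the part of this step in the small SDs at the top was not tested.

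**Figure D3:**
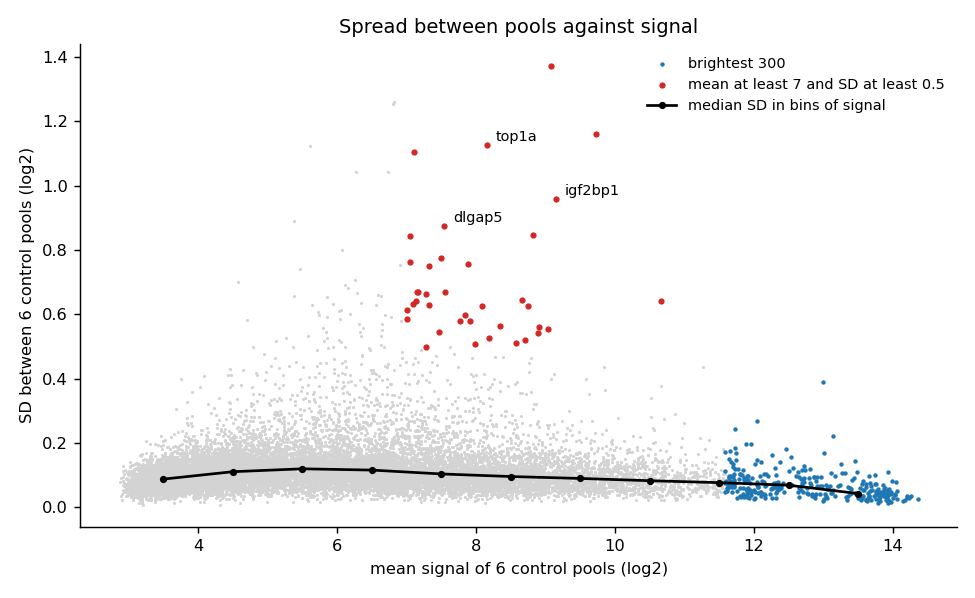
SD between the 6 control pools (vertical axis, log2 units) against the mean log2 signal (horizontal axis) of each of the 15502 probe sets (grey), with the brightest 300 in blue, the 38 with a mean of at least 7 and an SD of at least 0.5 in red, and the median SD in bins of signal as a black line. The black line stays between 0.043 and 0.120, and the red points lie mostly between signals of 7 and 9.

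Only 38 of the 5190 probe sets with a mean of at least 7 had an SD of at least 0.5, and pool 2 held the lowest value in 31 of them. Pools 1 and 2 were the 2 lowest in 27 of the 38 and the 2 highest in 4. Without pool 2 there were 13 such probe sets, and without pools 1 and 2 there were 6. Pool 2 was the one farthest from the median in 33 of the 38. Over all probe sets it was so for 32.0%, against 8.30% to 15.7% for each of the other pools. In a principal component analysis of the 6 pools, component 1 took up 54.9% of the variance, with pool 2 at 22.46, pool 1 at 8.35 and the other pools between -6.36 and -9.00. Component 2 took up 18.0% and had pools 5 and 6 at 8.58 and 7.51 and pool 3 at -8.69.

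Of the 15 probe sets with the widest spread at a mean of at least 7, 9 had a single gene. The one for top1a, a DNA topoisomerase, had 7.72 in pool 1 and 6.04 in pool 2, with 8.70 to 9.01 in the other pools (SD 1.13). igf2bp1, an RNA-binding protein of embryonic cells, had 8.90 in pool 1 and 7.35 in pool 2, with 9.33 to 9.95 in the others (SD 0.96). dlgap5, a mitotic spindle protein, had 7.32 and 5.85 in these pools and 7.86 to 8.15 in the others (SD 0.88). The same order was seen in the 2 chromatin remodelers chd2 (6.40 in pool 2, highest 8.37) and chd4b (5.92 in pool 2, highest 7.67), in the kinase jak1 (5.59 in pool 2, highest 7.55), in the copper transporter slc31a1 (6.14 in pool 2, highest 7.96) and in rsf1b.1, a chromatin remodelling factor (5.64 in pool 2, highest 7.89). Widest among those with a mean of at least 7 were 2 probe sets that share a name stem and have no gene in the annotation, one with 8.06 in pool 1 and 6.72 in pool 2 against 9.85 to 9.96 in the others, and one with 8.64 and 7.89 against 10.40 to 10.52. Another 4 probe sets among the 15 with the highest SD had no single gene either, and in each of them pool 2 was lowest. Of the 15, hmga1a was the one in which another pool was lowest. This chromatin protein had 8.38 and 8.43 in pools 5 and 6 and 7.00 to 7.26 in the other 4.

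Other probe sets of these genes mostly did not share the spread. The brightest probe set of top1a had 10.25 in pool 2 and 10.33 to 10.60 in the others (SD 0.12), and its 4 remaining probe sets had SDs of 0.08 to 0.17. A second probe set of dlgap5 had 8.67 in pool 2 and 8.48 to 8.68 elsewhere (SD 0.10), and one of chd2 had 7.68 in pool 2 and 7.69 to 7.91 elsewhere (SD 0.09). The second probe set of slc31a1 had 9.52 in pool 2 and 9.38 to 9.76 elsewhere (SD 0.14), and the brightest of chd4b had 9.07 in pool 2 and 8.95 to 9.17 elsewhere (SD 0.08). For igf2bp1 the second probe set ran the other way, with its highest value, 5.76, in pool 2. Both probe sets of rsf1b.1 moved alike, the second having 4.54 in pool 2 and 6.16 to 7.84 elsewhere (SD 1.26), and the dimmest probe set of chd4b was low in both pools, with 4.27 in pool 1 and 4.53 in pool 2 against 4.86 to 5.49. Of hmga1a, the brightest probe set had 12.91 to 13.03 in all pools (SD 0.04), another was highest in pools 1 and 2 (10.99 and 11.20) and lowest in pools 5 and 6 (10.22 and 10.34), and the dimmest was highest in pools 5 and 6 (7.61 and 7.45). A gene could therefore look steady or variable between pools according to the probe set chosen.

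**Figure D4:**
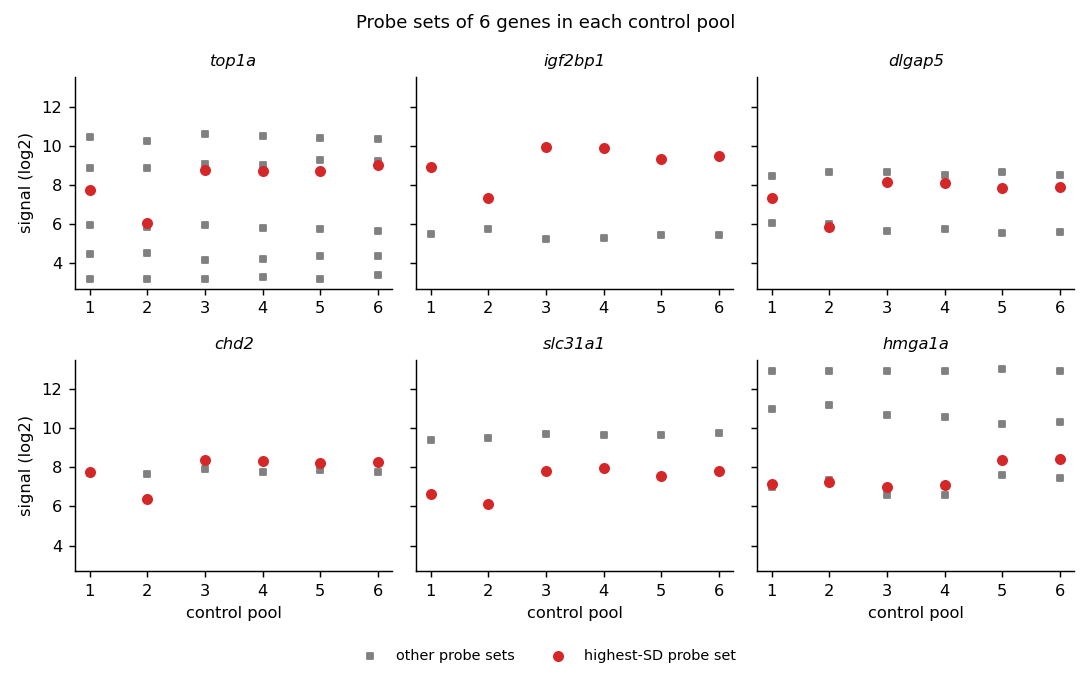
Log2 signal (vertical axis) in each of the 6 control pools (horizontal axis) for every probe set of 6 genes, with the probe set of highest SD as red circles and the other probe sets of the gene as grey squares. The red circle drops in pool 2 for top1a, igf2bp1, dlgap5, chd2 and slc31a1 while the other probe sets of these genes have SDs of at most 0.20, and hmga1a is high in pools 5 and 6.

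The difference between 3′ and 5′ signals also varied between these pools, as read from the Affymetrix control probe sets for the 3′ and the 5′ part of the same transcript. The labels name a whole-transcript (WT Sense Target) labelling kit beside this 3′ array, and whether that kit was used could not be settled, which limits the reading of the absolute differences. The 3′ minus 5′ difference of actin was 3.58 and 3.62 in pools 1 and 2 and 4.58 to 4.93 in the other pools, and that of gapdh was 1.15 and 1.36, against 1.52 to 1.70. For bacterial RNAs added to the samples as controls, the difference in pools 1 and 2 was 3.63 and 3.22 for dap (4.03 to 4.61 in the others) and 1.74 and 1.85 for phe (2.39 to 2.62). For thr it was at most 2.53 in pools 1 and 2 (2.82 to 3.40 in the others). For lys the difference was 1.99 and 2.12 (2.13 to 2.53). Pools 1 and 2 thus lay below the other pools in all 6 transcripts, through higher 5′ signals in actin (10.08 and 10.08, against 8.85 to 9.04) rather than lower 3′ signals (13.66 and 13.70, against 13.54 to 13.78). The hybridization controls bioB, bioC, bioD and cre, added with the labelled target, were highest in pools 5 and 6 and lowest in pool 3, for instance 10.02 and 10.03 against 9.26 for bioD. The part of these differences in the spread between pools was not tested.

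**Figure D5:**
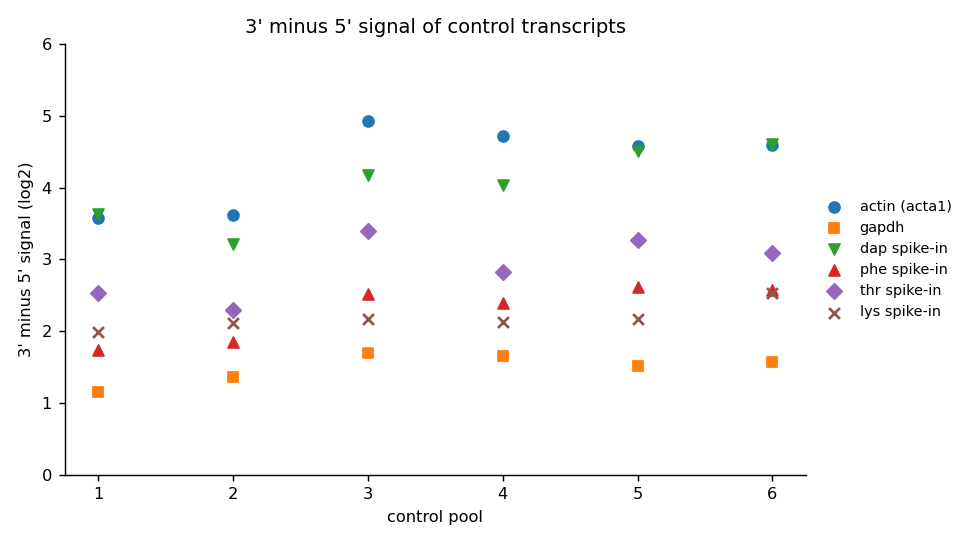
Difference between the 3′ and 5′ probe set signals (vertical axis, log2 units) of 2 zebrafish transcripts and 4 added bacterial RNAs in each control pool (horizontal axis). Pools 1 and 2 have the lowest points for every transcript, for actin 3.58 and 3.62 against at least 4.58 in the others.

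Over the brightest 300, pool 2 was again the pool most often farthest from the median, in 92 probe sets, followed by pool 6 in 75. Of the 10 probe sets with the highest SD there, 7 had their 2 lowest values in pools 5 and 6, as had 69 of all the brightest 300. The non-muscle myosin light chain myl12.1 had 11.79 and 11.77 in these pools, 12.27 and 12.45 in pools 1 and 2 and 11.94 and 12.04 in pools 3 and 4. The mitochondrial phosphate carrier slc25a3b had 11.50 and 11.44 in pools 5 and 6, against 12.03 in pool 1, nearly the same in pool 2, and 11.73 and 11.69 in pools 3 and 4. The same was seen for mylpfa, with 11.81 and 11.66 in pools 5 and 6 against 12.20 and 12.10 in pools 1 and 2, for apoa4b.2, with 11.47 and 11.45 against 11.85 and 11.85, and, less clearly, for the poly(A)-binding protein pabpc1a, with 11.69 and 11.61 against 12.08 and 11.93. For the nucleolar protein ncl, pools 5 and 6 had 11.43 and 11.38 against 11.50 to 11.79 in the others. In mdh1aa, cytosolic malate dehydrogenase, pool 2 was lowest with 11.37 against 11.71 to 11.89, while on the second probe set of this gene pool 2 was highest with 10.86 against 10.44 to 10.67. Here too other probe sets of a gene could be steadier, since a brighter one for myl12.1 had 12.22 to 12.39 and a second one for apoa4b.2 had 9.99 to 10.16. The brighter probe set of pabpc1a ran the other way, with 12.89 and 12.94 in pools 5 and 6 against 12.82 and 12.69 in pools 1 and 2, while the second probe set of mylpfa was, like the first, lowest in pools 5 and 6 (11.57 and 11.53). Across all of the brightest 300, pool 2 held the highest value in 101 and pool 5 the lowest in 81, and the average shift of pool 5 was -0.027 to -0.048 in the bins of signal above 9.

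Genes that respond to the state of an embryo showed moderate differences between pools. The widest was c3a.1, a complement C3 gene, on the brighter of its 2 probe sets (SD 0.55). It had 5.16 and 5.15 in pools 1 and 2 and 5.98 to 6.33 in the others. The other 15 genes of the interferon and inflammation list had SDs of at most 0.17. Of the immediate early genes, btg1 had 8.90 in pool 2 and 9.33 to 9.58 elsewhere (SD 0.26), and klf2b had 7.98 and 7.99 in pools 5 and 6 and 7.64 to 7.73 elsewhere (SD 0.16). The heat shock regulator hsf2 had 7.74 and 7.66 in pools 5 and 6, 7.00 in pool 2 and 7.24 to 7.38 in the remaining pools (SD 0.28). Among cell cycle genes with a mean of at least 5, the 4 highest SDs belonged to genes highest in pools 1 and 2. Other genes of the list ran the other way, such as mcm3 with 9.53 and 9.46 in these pools against 9.57 to 9.72 elsewhere. The dimmer ccna1 had the highest SD of the list (0.23), with 4.94 and 5.13 in pools 1 and 2 and 5.15 in pool 6. The nucleotide-making enzymes tk1 and tyms had 6.49 and 6.83, and 9.66 and 9.81, in pools 1 and 2, against highest values of 6.39 and 9.53 elsewhere, and mcm7, part of the replicative helicase, had 10.74 and 10.76 against at most 10.57. Over the 45 genes of the cell cycle list the average shift was 0.024 in pool 1 and 0.058 in pool 2, with -0.001 to -0.033 in the other pools, and the lists of the hatching gland and of endoderm and gut shifted by 0.058 and 0.071 in pool 2. All probe sets in the bins of signal that hold these list medians also shifted upward in pool 2. Their shifts were 0.014 between 9 and 10, 0.008 between 8 and 9 and 0.027 between 5 and 6.

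The p53 regulator mdm2 had 7.20 and 7.35 in pools 1 and 2 and 6.77 to 6.96 in the others (SD 0.22). The glycolytic enzyme gapdhs had 9.32 and 9.44 in pools 1 and 2 and 8.84 to 9.14 in the others (SD 0.21), and the peroxiredoxin prdx1 had its highest value, 9.14, in pool 2 (SD 0.16). Genes of the segmentation process, which ends around this stage, had no SD above 0.18, the widest being msgn1, a regulator of tailbud mesoderm, with 8.68 in pool 2 and 8.81 to 9.16 elsewhere. The clock genes clocka and bmal1b had 5.03 to 5.46 and 4.98 to 5.43, with SDs of 0.17 and 0.16. None of the 26 lists deviated from its own mean by more than 0.108 in any pool.

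How bright a gene appeared depended on its probe set. Of 1539 genes with several probe sets, the median gap between the brightest and the dimmest was 1.55 log2 units, and 1022 had a gap of at least 1. Of the genes of the brightest 300, 37 had several, with a median gap of 2.05, and 6 of these had another probe set below the midpoint. These were actc1b with a gap of 10.24, rpl21 with 9.55, hsp90ab1 with 9.21, myl12.1 with 8.87, ybx1 with 8.01 and atp5l with 8.00. At the other end tubb2b had 12.78 and 12.68 on its 2 probe sets, mylpfa 11.96 and 11.74, and icn 12.79 and 12.50. Probe sets whose name marks sequence shared between transcripts made up 15.7% of the brightest 300 (47) and 5.92% of all probe sets (917).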

How the data were processed

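Total RNA of about 100 whole embryos per pool was isolated with TRIzol and an RNeasy column, and samples with a RNA integrity number above the limit of the study were labelled, per the labels with a WT Sense Target kit, which could not be reconciled here with the 3′ design of the array, and hybridized. The authors made the deposited log2 signals with RMA in Bioconductor (background correction, quantile normalization over all 12 arrays and summary to probe sets); their versions were not given in the sources used here. Values were used as deposited, without further scaling, and no sequences were used. Arrays give no counts, and precision is limited by having 6 of them.

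Of 15617 probe sets, the 115 that are Affymetrix controls were set aside. Means, SDs, medians and ranks were computed for the 6 control pools with pandas 2.3.3 and numpy 2.4.6 in Python 3.11.15, and figures were drawn with matplotlib 3.10.9. The steps were tested on simulated data. The platform annotation gave 1 gene to 10795 probe sets, several to 135 and none to 4572; of 8796 gene identifiers, 8723 were found in the current reference annotation, which was used for symbols and for the order of genes only. As there was 1 group, no comparison was tested and no p-value is given; Dixon's criterion was used only to mark single pools for a closer look.

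Genes were named by a rule. It took the 20 brightest probe sets, ranks 300 and 301, and the 5 highest and 2 lowest members of each tissue list. Next came the 15 highest and 5 lowest SDs at a mean of at least 7, and the 10 highest in the brightest 300. From each list of stage or state it took up to 4 members with the highest SD at a mean of at least 5. Reference genes were added. Other members of the lists and families were named after their values were seen. Members and lists were chosen with earlier results of these data known. The alternatives were each pool left out, other normalization, centring, probe set filters, ranking by the median, another spread measure and other list sizes. Leaving out pools 1 and 2 together was chosen after seeing the data.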

Additional observations from a re-analysis of the deposited data

Results flagged for a closer look

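A value was looked at again where 1 pool stood apart from the other 5 by more than Dixon's critical value, a rule that marks about 1 in 20 groups by chance. Of 229 values examined, 20 (8.7%) were marked, 12 of them in pool 2. Many of these values had been chosen for a high SD between pools, which can raise the share marked, so it cannot be set against the share by chance. The other marks were 3 each in pools 5 and 6, and 1 each in pools 1 and 3.

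Pool 2 was the lowest for dlgap5 (5.85, next pool 7.32), jak1 (5.59, next 6.83), chd2 (6.40, next 7.77), an unannotated probe set (5.81, next 7.19), another unannotated probe set at rank 125 (12.22, next 13.01), mdh1aa (11.37, next 11.71) and btg1 (8.90, next 9.33). It was the highest for myl7 (9.82, next 9.61), tek (4.79, next 4.65), rpl8 (14.05, next 13.97), rps27a (13.98, next 13.94) and the mean of the germ cell list (5.44, next 5.33).

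Pool 5 was the highest for bmal1b (5.43, next 5.14) and gpib (5.86, next 5.58) and the lowest for actb2 (12.95, next 12.99). Pool 6 was the highest for rps25 (14.06, next 13.97) and for the 3′ minus 5′ difference of the added RNA lys (2.53, next 2.17), and the lowest for bcl2l10 (7.66, next 8.03). Pool 3 was the lowest for clocka (5.03, next 5.36), and pool 1 the highest for the mean of the vessel list (5.92, next 5.83). The gaps of the ribosomal genes and of actb2 were under 0.1 log2 units.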

How the results depend on the processing

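Of 2344 recomputed values, 2274 stayed within the spread between pools (counts within 1.5 times). Many of them were means of single probe sets with 1 pool left out. Such a mean cannot move beyond the SD between the 6 pools, so that this share does not measure stability. Leaving out 1 pool in turn kept at least 296 of the brightest 300, and gave 13 (without pool 2) to 44 probe sets with a mean of at least 7 and an SD of at least 0.5, in place of 38. Without pools 1 and 2 the number was 6, the median SD was 0.0846 (brightest 300: 0.0489) and the median rank of epidermis was 1082 in place of 1015. With the median absolute deviation the median SD was 0.0848 (brightest 300: 0.0491). The signal at rank 300 was 11.37 without probe sets of shared sequence, of which 253 of the brightest 300 remained, and 11.63 with the Affymetrix controls. Without shared-sequence probe sets the median ranks were 1098.5 for muscle (1206.5 before), 5871 for blood (6297), 1224 for epidermis, 553 for the yolk list (356), 10855 for lens (11491) and 5510.5 for the nervous system (5781.5). With the median over the probe sets of a gene they were 1311.5 for muscle, 1433 for epidermis, 621 for the yolk list and 6821 for the nervous system. Members of a tissue list as a percentage of the brightest probe sets were also taken with other list sizes. They moved beyond 1.5 times for 4 lists with the brightest 150 and for 5 with the brightest 600. They stayed for 11 and 10 lists, where lists without a member at both sizes count as having stayed. The causes of these shifts were not tested. The signal of dim genes near 3 to 4 limits what can be said of the lens and later organs. No paired analysis was possible because only 1 group was described.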
